A study of Mus musculus with 25 samples.

Results

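The oligodendrocyte and myelin genes are a list of 29 genes for the proteins and lipid enzymes of the myelin sheath, for the transcription factors of the cells that make it, and for other proteins that mark those cells. The list was drawn up from knowledge of the cell type. Its rule uses no measured value, but it was chosen with earlier results of these data known. A probe set, the group of probes that reads 1 transcript on the array, counted for a gene where the array's annotation gave that gene alone, and the brightest probe set led for each gene. By this rule 27 of the 29 genes were measured, with 60 of the 45101 probe sets on the array, among 18193 genes that had a leading probe set. Trf and Enpp2 had no probe set of their own and were not analysed here. Of the 27 genes, 12 had 1 probe set and 15 had several, and 25 of the 27 leading probe sets were above the median signal of the array.

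The mice were inbred Balb c/J females. Handling meant daily 15-min separations from the dam between postnatal days 1 and 14, and the non-handled pups had none. The mice went through behavioral tests when 8 weeks old, and the CA1 region of the hippocampus was dissected 2 weeks later, so every sample is a piece of tissue that holds neurons, glia and vessels. RNA came from 11 handled mice, 7 extracted with RNA/DNA columns and 4 with Trizol, and from 14 non-handled mice, 10 extracted with columns and 4 with Trizol. Each mouse had 1 array. The mice came from several litters, handling was given to whole litters, and the litter of a mouse is not given in the sources used here, so p-values treat the mice as independent. In tissue, fewer oligodendrocytes and less RNA per oligodendrocyte cannot be told apart.

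Oligodendrocytes wrap axons of the central nervous system in layers of membrane that are rich in cholesterol and in galactolipids. Myelin basic protein (Mbp) holds the cytoplasmic faces of these layers together, and Ugt8a and Fa2h act in the synthesis of their galactolipids. Olig1, Olig2, Sox10, Nkx6-2 and Myrf are transcription factors that turn precursors into myelinating cells. In the hippocampus, myelinated fibers run in the alveus and the neighboring layers beside CA1, so a CA1 piece holds some of them.

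Sox10 is a DNA-binding factor of the high mobility group family, whose members bind short sites such as ACAAAG and ACAATG. The RefSeq promoter table (mouse build GRCm38.p6) held 27 windows for 19 of the 27 measured genes. It was matched by gene symbol, and the 250 bases before each start listed there were searched on both strands for these 2 motifs, which do not overlap each other. Either motif was present in 10 of the 27 windows (37.0%), belonging to 8 genes, against 25.2% of the 32851 windows of all genes. ACAAAG was present in 29.6% of the members' windows and in 16.5% of all, and ACAATG in 11.1% and 10.7%. A match is a description of the letters and not a binding site. The windows of 3 genes are shown. Ermn was higher in handled mice, and Mobp and Cnp belonged to the pairs that moved most closely together between mice, as described further on. Gsn and Gpr37 were also higher in handled mice, and Mal belonged to such a pair. Their windows held neither motif and are not shown. All 3 printed windows therefore hold a motif, while only 8 of the 19 genes had one. The capitals mark the motifs on either strand. For Cnp the RefSeq gene table of the same build starts the gene at 100574909, so the last bases of its window lie inside the gene.
Ermn, chr2:58052865-58053114, minus strand: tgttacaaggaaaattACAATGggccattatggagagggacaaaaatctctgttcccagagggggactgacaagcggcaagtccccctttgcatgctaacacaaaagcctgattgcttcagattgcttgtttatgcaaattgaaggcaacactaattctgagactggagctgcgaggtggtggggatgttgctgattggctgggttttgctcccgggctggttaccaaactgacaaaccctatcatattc
Mobp, chr9:120149492-120149741, plus strand: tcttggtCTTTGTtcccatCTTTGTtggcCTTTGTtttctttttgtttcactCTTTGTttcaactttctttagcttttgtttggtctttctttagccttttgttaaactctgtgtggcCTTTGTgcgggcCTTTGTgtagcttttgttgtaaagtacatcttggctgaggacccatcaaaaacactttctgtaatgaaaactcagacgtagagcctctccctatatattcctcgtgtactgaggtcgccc
Cnp, chr11:100574689-100574938, plus strand: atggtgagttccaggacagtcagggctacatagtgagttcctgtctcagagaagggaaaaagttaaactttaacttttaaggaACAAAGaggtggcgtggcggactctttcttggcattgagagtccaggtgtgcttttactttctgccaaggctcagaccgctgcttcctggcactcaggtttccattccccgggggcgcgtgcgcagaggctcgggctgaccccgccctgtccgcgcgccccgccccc
The Mobp window held 6 matches, all of them the complement of ACAAAG. No other window among the 32851 held 6 or more, a count that was made after the sequence had been seen.

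Before the members are described, the arrays are given in brief. The values are MAS 5.0 signals, a linear measure of hybridization, and the signals of different probe sets are not comparable as levels. The mean signal of an array lay between 737 and 910, and no member reached the top of the scale. The median signal of an array differed more, at 79.6 to 141.9 in handled mice and 94.7 to 162.8 in non-handled mice. The oligodendrocyte markers Mbp, Mog, Mag, Mobp, Cnp, Cldn11, Opalin and Ermn were all above the median signal, as were all 7 measured CA1 pyramidal neuron markers, while 5 of 7 choroid plexus markers and 3 of 4 dentate granule cell markers were below it. One array, of non-handled mouse NH162 (columns), had a log2 ratio of 3' to 5' Actb signal of 3.24, against 1.54 to 2.12 on the other 24 arrays. This ratio is a measure of RNA integrity and of amplification. Mouse NH162 also had the highest non-handled signal of Mbp, Qdpr, Bcas1, Cnp, Cryab, Sox10 and Fa2h, and values without it are given for the results named next. Without it Qdpr differed by 0.04 between handled and non-handled mice (limma adjusted p = 0.779) and Bcas1 by -0.24 (limma adjusted p = 0.201), while Fa2h stood at 0.77 (limma adjusted p = 4.11e-05) and Sox10 at -0.69 (limma adjusted p = 0.0112). Between columns and Trizol, Cryab differed by 1.18 without it (limma adjusted p = 1.45e-11).

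Does postnatal handling move these genes in adult CA1? In all mice 22 of their 27 leading probe sets did not differ at a limma adjusted p under 0.05, beside 15592 of 18193 over all genes. In all mice, with extraction as a term of the fit, 4 of 27 leading probe sets were higher in handled mice (Fa2h, Ermn, Gsn and Gpr37) and 1 was lower (Sox10), at an adjusted p under 0.05 in limma. Over all genes, 4.51% of leading probe sets were higher and 9.79% were lower, and over all 45037 probe sets tested 11.5% passed in either direction. The median change of the 27 members was 0.08 on the log2 scale, beside -0.12 over all genes, and with every array set to 1 common mean and SD the members' median turned to -0.02. That scaling and quantile normalization both brought the median of all genes to -0.01. Without mouse NH162 the same 5 members passed.

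Fa2h, the fatty acid 2-hydroxylase that makes the hydroxylated fatty acids of myelin galactolipids, had the clearest difference. With columns, its signal lay between 1622 and 1941 in the 7 handled mice, with a median of 1664, and between 689 and 1070 in the 10 non-handled mice, with a median of 815. The lowest handled mouse was above the highest non-handled mouse, and that highest non-handled mouse was NH162. Of all leading probe sets, 0.599% had every handled column mouse above every non-handled column mouse. With Trizol the signals were 861, 691, 739 and 706 in handled mice, against 852, 628, 586 and 836 in non-handled mice, and the groups overlapped. All 7 handled mice extracted with columns were above all 18 other mice, the handled Trizol mice included.

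In the fit of all mice Fa2h was higher in handled mice by 0.75 ± 0.11 on the log2 scale (SE), a fold change of 1.68, with an adjusted p of 5.64e-05 in limma. The exact permutation test of handling within extraction method, over 1361360 reassignments, gave a two-sided p of 1.84e-05. Within columns the difference was 1.08 ± 0.10 (fold change 2.12, limma adjusted p = 2.38e-09), and within Trizol it was 0.06 ± 0.14 (limma adjusted p = 0.986). The difference between these handling effects was 1.02 ± 0.17, with an adjusted p of 0.00815 in limma. Over all genes 0.077% of leading probe sets, 14 in number, passed this test of a handling effect that differs between extraction methods, and Fa2h was the only member among them and the only gene of the 14 with a larger value in columns. Without the mean-variance trend in the fit, the adjusted p of that difference was 0.0982 and no member passed. Extraction group and any other difference between those mice cannot be told apart here, because the extraction method is the only label that separates them.

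**Figure D1:**
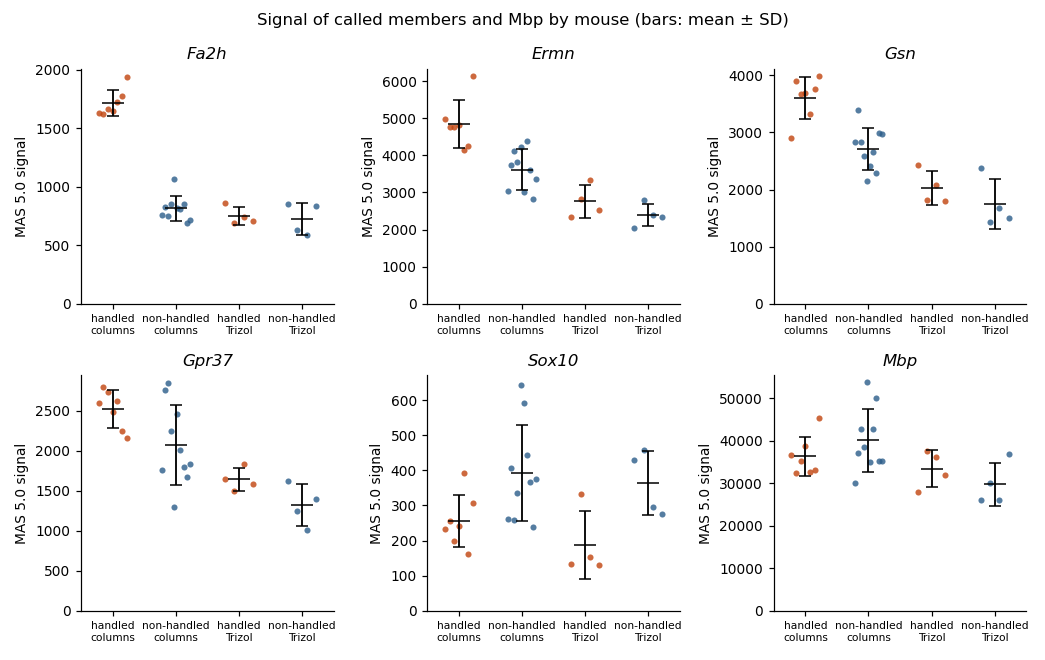
MAS 5.0 signal (vertical axes, linear from 0) of Fa2h, Ermn, Gsn, Gpr37, Sox10 and Mbp in every mouse, by handling and extraction method. Points are mice, and bars show the mean and SD of 7 handled and 10 non-handled mice with columns and of 4 and 4 with Trizol. For Fa2h the handled column mice, between 1622 and 1941, lie apart from all others, and for Mbp the groups overlap.

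The other enzyme of galactolipid synthesis on the list, Ugt8a, which adds galactose to ceramide, differed by 0.20 (limma adjusted p = 0.0784) in all mice and did not pass. Its values within columns and within Trizol were 0.23 and 0.12. By the median over its probe sets, Ugt8a was higher in handled mice and passed within columns, but not in all mice.

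Ermin (Ermn) is a cytoskeletal protein of oligodendrocytes that appears late in myelination, and gelsolin (Gsn) severs actin filaments. With columns, Ermn signal lay between 4143 and 6131 in handled mice (median 4769), against 2812 to 4387 in non-handled mice (median 3676). With Trizol it was 2344, 2816, 3345 and 2519 in handled mice, against 2041, 2785, 2401 and 2329 in non-handled mice. The column groups overlapped slightly, with 5 of the 7 handled mice above every non-handled mouse, and the Trizol groups overlapped.

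The Ermn difference was 0.35 ± 0.08 in all mice (SE, fold change 1.28, limma adjusted p = 0.00707, exact permutation p = 0.000362) and 0.43 ± 0.10 within columns (limma adjusted p = 0.00624), while within Trizol it was 0.20 ± 0.15 (limma adjusted p = 0.868). The second Ermn probe set, which was dimmer, differed by -0.06 in all mice and did not pass. With columns it went against the leading one: 6 of the 7 handled mice were below the median of the non-handled mice. With Trizol 3 of the 4 handled mice were above it. With every array set to 1 common mean and SD the Ermn call in all mice was lost (limma adjusted p = 0.0948). With the median of both probe sets it was lost in all mice (limma adjusted p = 0.275) and within columns (0.09, limma adjusted p = 0.593).

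Gsn was between 2902 and 3984 with columns in handled mice (median 3681), against 2141 to 3397 in non-handled mice (median 2744). With Trizol it was 2438, 1811, 2075 and 1798 in handled mice, against 2378, 1424, 1677 and 1509 in non-handled mice. As for Ermn, 5 of 7 handled column mice were above all non-handled column mice. The difference was 0.36 ± 0.09 in all mice (SE, fold change 1.28, limma adjusted p = 0.00742, exact permutation p = 0.000765), 0.42 ± 0.10 within columns (limma adjusted p = 0.00911) and 0.24 ± 0.15 within Trizol (limma adjusted p = 0.831). The other 4 Gsn probe sets above the median signal gave values from -0.12 to 0.17, none of which passed, and with the median over all probe sets of the gene the difference was 0.09 (limma adjusted p = 0.441). Gsn is also made by cells other than oligodendrocytes.

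Tspan2, a tetraspanin of oligodendrocyte membranes, did not pass on its leading probe set, at 0.08 ± 0.08 (SE, limma adjusted p = 0.560). A second Tspan2 probe set of similar brightness was higher in handled mice by 0.38 ± 0.08 (limma adjusted p = 0.00313, exact permutation p = 0.00019). On that probe set the signal was 1966 to 2527 in handled column mice (median 2267) and 1371 to 2361 in non-handled column mice (median 1596). With Trizol it was 1929, 1606, 1827 and 1814 in handled mice, against 1489, 1922, 1297 and 1421 in non-handled mice. All 11 handled mice exceeded the median of the non-handled mice, yet the groups overlapped under both methods. On a further, dimmer Tspan2 probe set, which did not pass, 9 of the 11 handled mice exceeded the non-handled median. There all 7 handled column mice exceeded the median of the non-handled column mice. By the median over its probe sets, Tspan2 was higher in handled mice and passed, in all mice and within columns.

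Gpr37, a G protein-coupled receptor that slows the differentiation of mouse oligodendrocytes, was between 2166 and 2799 with columns in handled mice (median 2600), against 1295 to 2851 in non-handled mice (median 1923). With Trizol the values were 1654, 1503, 1837 and 1584 in handled mice, against 1628, 1249, 1006 and 1403 in non-handled mice. The ranges overlapped under both methods. The difference was 0.32 ± 0.10 in all mice (SE, fold change 1.25, limma adjusted p = 0.034, exact permutation p = 0.00595), 0.32 within columns (limma adjusted p = 0.0867) and 0.33 within Trizol (limma adjusted p = 0.774). This call was near its threshold: it was lost when handled mouse H108, H109, H110 or H117 or non-handled mouse NH166 or NH146 was left out, with limma adjusted p-values of 0.0542, 0.0652, 0.0599, 0.0525, 0.051 and 0.0559, and also under quantile normalization (limma adjusted p = 0.0836), with every array set to 1 common mean and SD (0.114), without the mean-variance trend (0.0726), without the extraction term (0.306) and with the 3' to 5' ratios as covariates (0.117).

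Among the transcription factors, Sox10 was lower in handled mice. With columns its signal was 163 to 393 in handled mice (median 242), against 239 to 643 in non-handled mice (median 372), and the highest non-handled value belonged to NH162. The Trizol signals were 133, 331, 152 and 130.97 in handled mice, against 428, 457, 296 and 275 in non-handled mice. Of the 11 handled mice, 10 were below the non-handled median, and 6 were below every non-handled mouse. Sox10 fell by 0.74 ± 0.18 on the log2 scale (SE, fold change 0.598, limma adjusted p = 0.00753, exact permutation p = 0.00148), and the call held without any 1 mouse. Within columns the value was -0.59 ± 0.22 (limma adjusted p = 0.0672), and within Trizol it was -1.05 ± 0.31 (limma adjusted p = 0.392).

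The other Sox10 probe sets gave a different account. One, above the median signal, differed by -0.18 in all mice, by -0.58 within columns and by 0.62 within Trizol, and passed in none of them. Another, with signals near the floor of the array (4.7 to 175.6 over all mice), fell by 2.12 ± 0.57 within columns (SE, limma adjusted p = 0.0139) and stood at 0.75 within Trizol. That call was lost under quantile normalization (-1.68, limma adjusted p = 0.0627) and with every array set to 1 common mean and SD (-1.64, limma adjusted p = 0.0607). Taken by the median of its 3 probe sets, Sox10 differed by -0.27 (limma adjusted p = 0.403).

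Olig1 and Olig2, basic helix-loop-helix factors of the lineage, differed by -0.15 and 0.17, and neither passed (limma adjusted p = 0.328 and 0.371). Myrf, the membrane-bound factor that turns on myelin genes, stood at -0.89 (limma adjusted p = 0.0925), and Nkx6-2, a homeodomain factor, at -1.03 (limma adjusted p = 0.0817). Both were dim and variable, with Nkx6-2 signals of 7.1 to 97 in handled mice, against 30 to 230 in non-handled mice. Nkx6-2 had the largest spread between mice of all 27 members, with an SD of 1.05 on the log2 scale after removal of group means.

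The proteins of compact myelin did not pass. Mbp was between 32412 and 45391 with columns in handled mice (median 35266), against 30177 to 53912 in non-handled mice (median 37830). Among Trizol mice it was 28008, 37538, 36248 and 32048 in handled mice, against 26080, 30064, 26087 and 36856 in non-handled mice. The groups overlapped throughout. The difference was -0.03 ± 0.10 (SE, 95% interval -0.23 to 0.17, limma adjusted p = 0.870, exact permutation p = 0.742), and its sign turned without NH162 (0.01) and under quantile normalization (0.07).

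Mbp had 8 probe sets, and 1 of them was lower in handled mice. This dimmer probe set was at 730 to 1232 with columns in handled mice (median 796), against 900 to 1604 in non-handled mice (median 1331). In the Trizol mice the values were 787, 656, 562 and 804 in handled mice, against 950, 644, 799 and 985 in non-handled mice. All 7 handled column mice were below the median of the non-handled column mice, and its difference was -0.47 ± 0.10 (SE, limma adjusted p = 0.00377, exact permutation p = 0.000403). The other 7 probe sets lay between -0.17 and -0.03, and none passed.

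Mobp, a basic protein of compact myelin, was at 18229 to 30017 with columns in handled mice (median 24371), against 16108 to 29765 in non-handled mice (median 23052). Trizol arrays gave 14587, 23006, 21686 and 18940 in handled mice, against 15579, 17896, 12633 and 18796 in non-handled mice. Its difference of 0.12 ± 0.11 did not pass (SE, limma adjusted p = 0.488), and the 3 other Mobp probe sets above the median signal stood at 0.08, -0.20 and -0.18. The leading value became -0.17 with every array set to 1 common mean and SD.

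Bcas1, a protein of newly myelinating oligodendrocytes, was at 7120 to 11095 with columns in handled mice (median 9360), against 7148 to 15725 in non-handled mice (median 13592). By Trizol it was 3881, 5514, 5653 and 4740 in handled mice, against 5929, 5933, 3465 and 5895 in non-handled mice. All 7 handled column mice were below the median of the non-handled column mice, and all 4 handled Trizol mice were below that of the non-handled Trizol mice. The difference was -0.27 ± 0.12 (SE, limma adjusted p = 0.150, exact permutation p = 0.064), and it passed with every array set to 1 common mean and SD (-0.47, limma adjusted p = 0.0385).

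Qdpr, the dihydropteridine reductase that regenerates tetrahydrobiopterin and is abundant in oligodendrocytes, was at 18611 to 25237 with columns in handled mice (median 20883), against 18329 to 38585 in non-handled mice (median 20904). For the Trizol mice it came to 17617, 22369, 19577 and 18393 in handled mice, against 17517, 15407, 14175 and 18154 in non-handled mice. The difference was -0.01 ± 0.10 (SE, limma adjusted p = 0.945), so close to 0 that its sign turned under 4 of the alternatives. The second Qdpr probe set was at 0.16 and did not pass either.

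None of Mog, Mag, Cnp, Cldn11, Mal, Opalin, Gjb1, Gjc3, Aspa, Car2, Cryab and Pllp passed, at -0.23 to 0.43. Mal, a proteolipid of myelin rafts, was closest at 0.23 (limma adjusted p = 0.0857), and Gjb1, the connexin of the outer loops, stood at 0.43 (limma adjusted p = 0.462) on a dim probe set.

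Within each extraction method fewer members passed. With columns, 3 of 27 members were higher in handled mice (Fa2h, Ermn and Gsn) and 0 were lower, beside 5.47% and 9.5% of all genes. This count depended on single non-handled mice: it was 5 without NH142, without NH155 or without NH167. With every array set to 1 common mean and SD, 2 members were higher (Fa2h and Gjb1) and 4 were lower (Olig1, Bcas1, Mbp and Qdpr), of which only Fa2h had passed before. That scaling gave 909 higher and 1164 lower of 18193 genes. With Trizol, 0 of 27 members passed in limma, as did 0% of all genes. At an unadjusted p under 0.05, Mal was higher (0.39 ± 0.15, SE) and Sox10 was lower in the Trizol mice, beside 7.84% of all genes. With 4 mice in each Trizol group, 95% intervals of the members were wide, as for Ermn, where it ran from -0.10 to 0.50 and held the value found within columns.

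**Figure D2:**
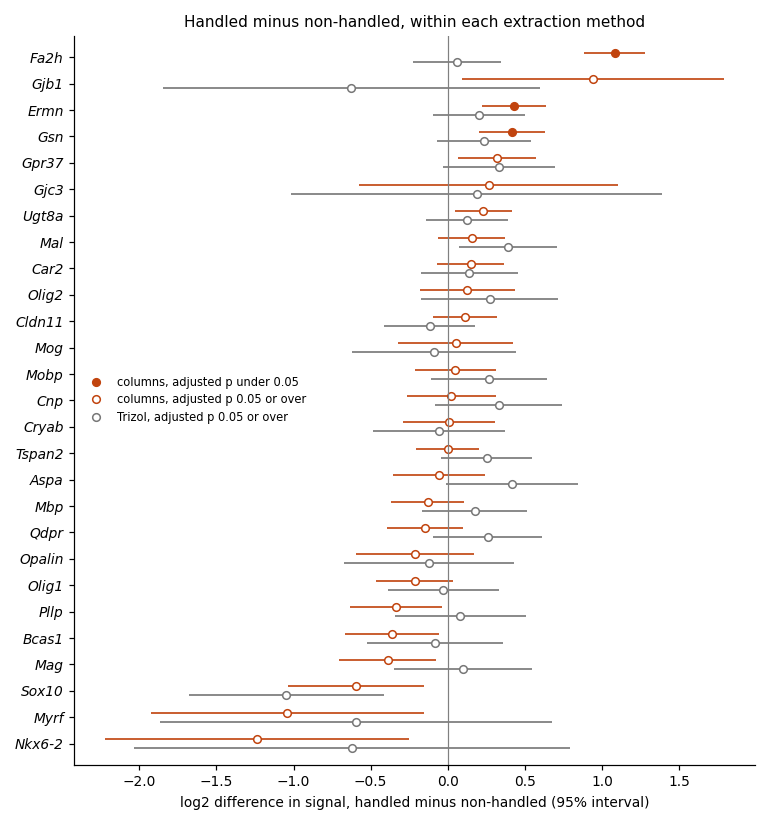
Log2 difference in signal, handled minus non-handled (horizontal axis), of the 27 members within columns (orange-red) and within Trizol (grey), with 95% intervals and filled points where the adjusted p was under 0.05. Only Fa2h, Ermn and Gsn are filled, all of them within columns, and for Fa2h the columns value of 1.08 lies apart from the Trizol value of 0.06.

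Other genes of the lineage were read from lists that hold no member. Of 27 other oligodendrocyte genes, 2 were higher in handled mice and 0 were lower, and their median was 0.04. The genes that passed were Lpar1, a receptor for lysophosphatidic acid (0.33, limma adjusted p = 0.0265), and Adssl1, an enzyme of adenine nucleotide synthesis (0.84, limma adjusted p = 0.0264). Of 18 measured genes of oligodendrocyte precursors and differentiation, 3 were higher and 0 were lower, with a median of 0.18. They were Pdgfra, the growth factor receptor that marks precursors (0.30, limma adjusted p = 0.0454), Lhfpl3, a membrane protein of precursors (0.30, limma adjusted p = 0.0292), and Id4, an inhibitor of helix-loop-helix factors that astrocytes make as well (0.39, limma adjusted p = 0.00457). Of 17 cholesterol synthesis genes, Cyp51 was higher (0.35, limma adjusted p = 0.0033), and Tm7sf2 (-0.76, limma adjusted p = 0.00152) and Fdps (-0.35, limma adjusted p = 0.0406) were lower, with a median of 0.04.

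In all mice 1 of 8 astrocyte markers was higher in handled mice (Aqp4) and 0 were lower, with a median of 0.04. Sums of marker signal are given within each extraction method, because astrocyte and microglial sums were higher with columns than with Trizol. With columns the astrocyte sum was 85560.5 to 108780 in handled mice, against 79971 to 120544 in non-handled mice. With Trizol it was 63879 to 75649 in handled mice, against 56862 to 70468 in non-handled mice. Of 9 microglial markers 1 was higher and 1 was lower, with a median of -0.13. With columns their sum was 17551 to 26477 in handled mice (median 20754), against 18640 to 30259 in non-handled mice (median 24563). With Trizol it was 9006 to 9845 in handled mice, against 8451 to 12338 in non-handled mice. Of 7 choroid plexus markers 2 were lower in handled mice (Clic6 and Folr1), and all 7 had negative values, with a median of -0.63. With columns their sum was 459 to 650 in handled mice, against 535 to 1054 in non-handled mice. With Trizol it was 548 to 623 in handled mice, against 682 to 3317 in non-handled mice (median 922). Of 7 CA1 pyramidal neuron markers 0 were higher and 1 was lower (Camk2a), with a median of -0.02. Of 5 endothelial markers 1 was lower (Cldn5), with a median of -0.09, and of 4 dentate granule cell markers 0 passed, with a median of -0.22. Pmp2, the one Schwann cell marker measured, was dim and fell by 2.22 on the log2 scale in handled mice (limma adjusted p = 0.00317). The part of these cells in the members' results was not tested.

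Extraction method moved far more of the members than handling did. With handling as a term, 21 of 27 leading probe sets were higher with columns than with Trizol and 0 were lower, beside 23.7% and 17.7% of all genes. The median difference of the members was 0.57 on the log2 scale, and that of all genes was -0.02. Under quantile normalization all genes shifted to 0.26 and the members to 0.59, and 18 members were higher and 0 were lower. With every array set to 1 common mean and SD these were 0.26, 0.70, 19 and 0.

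The largest difference was that of Gjb1, with signals of 19.5 to 183 over 17 column mice (median 94) and 17.3 to 55 over 8 Trizol mice (median 31.4). It came to 1.32 ± 0.38 (SE, limma adjusted p = 0.00527), on a probe set below the median of the array, and with the 3' to 5' ratios as covariates it did not pass (limma adjusted p = 0.120). Cryab, the small heat shock protein alpha B-crystallin, was at 2140 to 6103 with columns (median 2996) and 1059 to 1742 with Trizol (median 1288). Its groups did not overlap, and its difference was 1.23 ± 0.13 (SE, fold change 2.35, limma adjusted p = 7e-10). Cnp, a phosphodiesterase of the cytoplasmic channels of myelin, Bcas1 and Olig1 also had no overlap between columns and Trizol, with differences of 1.21, 1.08 and 0.95. These were 4 of 27 members, and 5.18% of all leading probe sets had every column mouse above every Trizol mouse.

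Probe sets of 1 gene did not always move alike with extraction. Of the 8 Mbp probe sets, 6 were higher with columns, 1 did not pass and 1 was lower, and the values ran from -0.75 ± 0.11 (SE, limma adjusted p = 5.52e-07) to 1.14 ± 0.13 (SE, limma adjusted p = 9.84e-09). The 6 members whose leading probe set did not pass were Aspa, Nkx6-2, Opalin, Pllp, Sox10 and Tspan2, at -0.32 to 0.30.

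Some other gene lists were also higher with columns. All 7 CA1 pyramidal neuron markers, all 8 astrocyte markers and 7 of 9 microglial markers were higher with columns and none was lower, as were 12 of 17 cholesterol synthesis genes, where 1 was lower. Summed signal of the pyramidal markers was 31456 to 48718 with columns and 20045 to 30232 with Trizol. Of the other oligodendrocyte genes 13 of 27 were higher and 2 were lower, and of the precursor genes 6 of 18 were higher and 2 were lower. Of 4 dentate granule cell markers 0 were higher and 2 were lower (median -0.58), of 7 choroid plexus markers none passed in either direction (median -0.01), and of 5 endothelial markers 1 was higher and 1 was lower. Pmp2 stood at -0.66 and did not pass. The 3' to 5' ratio moved with extraction for Gapdh, at log2 values of 1.04 to 1.71 with columns and 1.49 to 1.95 with Trizol, while the Actb ranges were 1.54 to 3.24 and 1.62 to 2.12. With both ratios as covariates 16 of 27 members were higher with columns and 0 were lower, beside 2874 and 1997 of 18193 genes. Extraction was done on separate sets of mice, so extraction method and those mice cannot be told apart.

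**Figure D3:**
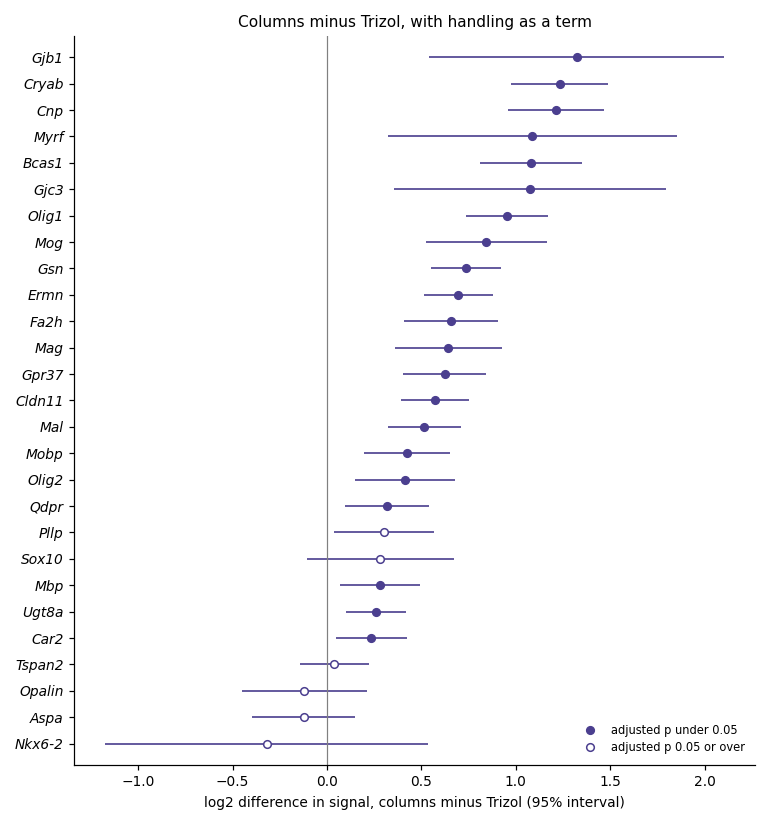
Log2 difference in signal, columns minus Trizol (horizontal axis), of the 27 members with 95% intervals, from 17 column and 8 Trizol mice with handling as a term. Filled points have an adjusted p under 0.05: 21 members are filled, all to the right of 0, from Car2 at 0.24 to Gjb1 at 1.32.

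A per-mouse score, the mean log2 signal of the 27 leading probe sets, described the list as a whole. With columns it was 10.67 ± 0.09 in handled mice, against 10.69 ± 0.21 in non-handled mice (SD, n = 7 and n = 10). With Trizol the score was 10.12 ± 0.14 in handled mice, against 10.11 ± 0.23 in non-handled mice (SD, n = 4 each). Handled and non-handled mice overlapped under both methods, and every column mouse, at 10.32 or more, was above every Trizol mouse, at 10.31 or less. The lowest column mouse was NH142 at 10.32 and the highest was NH156 at 10.93, and the lowest Trizol mouse was NH146 at 9.79. Handled minus non-handled, with extraction as a term, the score differed by -0.004, and over the alternatives by -0.05 to 0.04.

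**Figure D4:**
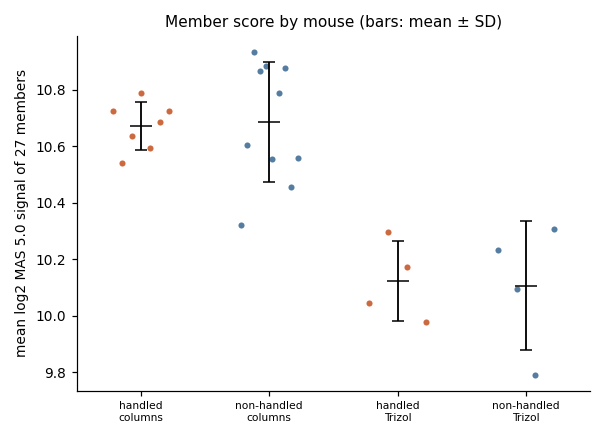
Mean log2 MAS 5.0 signal of the 27 leading probe sets (vertical axis) in every mouse, by handling and extraction method, with bars for the mean and SD. Handled and non-handled mice overlap at about the same level within each method, and the column mice lie above the Trizol mice.

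Did the members move together from mouse to mouse? Each member's log2 signal was taken relative to the mean of the mouse's own group of handling and extraction, and Pearson's r was computed over the 25 mice for all 351 pairs of members. An r of 0.5 or more was found in 76 pairs (21.7%), against 2.27% of the pairs of all genes and 5.13% of the pairs of genes brighter than the median gene. The median r was 0.22 in the members and 0.01 over all genes. These r values are descriptions: the mice share the scaling of the arrays and the dissection of CA1, and each r rests on 25 mice.

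Within the 17 column mice 27.1% of the members' pairs reached 0.5, against 4.44% of all pairs, and within the 8 Trizol mice 28.5% did, against 14.4% of all pairs. Of the 351 pairs, r was below 0 in 100 within columns and in 122 within Trizol. Some members had unlike values of r with the mean of the other members under the methods. It was 0.77 within columns and -0.49 within Trizol for Mog, 0.70 and 0.02 for Ermn, and 0.68 and 0.12 for Cryab. Others went the other way, with -0.01 and 0.71 for Nkx6-2 and -0.02 and 0.65 for Gpr37. The Trizol values rest on 8 mice, and a difference between the methods was not tested. Without mouse NH162 there were 83 such pairs and the median r was 0.27, and over all mice left out one at a time there were 70 to 86. Taken by the median of all probe sets of each gene, 46 pairs reached 0.5.

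The closest pair was Mobp and Bcas1, at r = 0.90 (Spearman's rho 0.87) over 25 mice, 0.90 within columns and 0.89 within Trizol. Cnp and Olig1 followed at 0.85 (rho 0.83), and Mal and Bcas1 at 0.85 (rho 0.77). Cryab and Qdpr were nearly as close at 0.85, with rho at 0.68 and with 0.93 within columns but 0.31 within Trizol. Of these genes Mobp, Cnp and Mal belong to the myelin sheath, and Bcas1 and Olig1 to the cells that form it.

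Set against the mean of the other 26 members, Mal had the highest r at 0.87, then Bcas1 at 0.84, Opalin at 0.82, Aspa at 0.78 and Mobp at 0.77. Mbp was at 0.75 and Olig1 at 0.72. Aspa cleaves N-acetylaspartate to supply acetate for lipid synthesis, and Opalin is a membrane glycoprotein of central myelin. These 7 genes kept an r of 0.67 or more without the 2 mice farthest from the median, NH142 and NH146.

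Other members did not follow the rest. Gsn had the lowest median r with the other members, at -0.18, then Olig2 at -0.02 and Cldn11, the claudin that forms the tight junctions of myelin, at 0.01. Each of these 3 had no partner at 0.5 or more. Gsn and Cldn11 were closest to each other, at 0.49. Neither Gpr37, Sox10, Myrf, Nkx6-2 nor Gjb1 had a partner at 0.5, while Fa2h had 6 and Ermn 7.

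**Figure D5:**
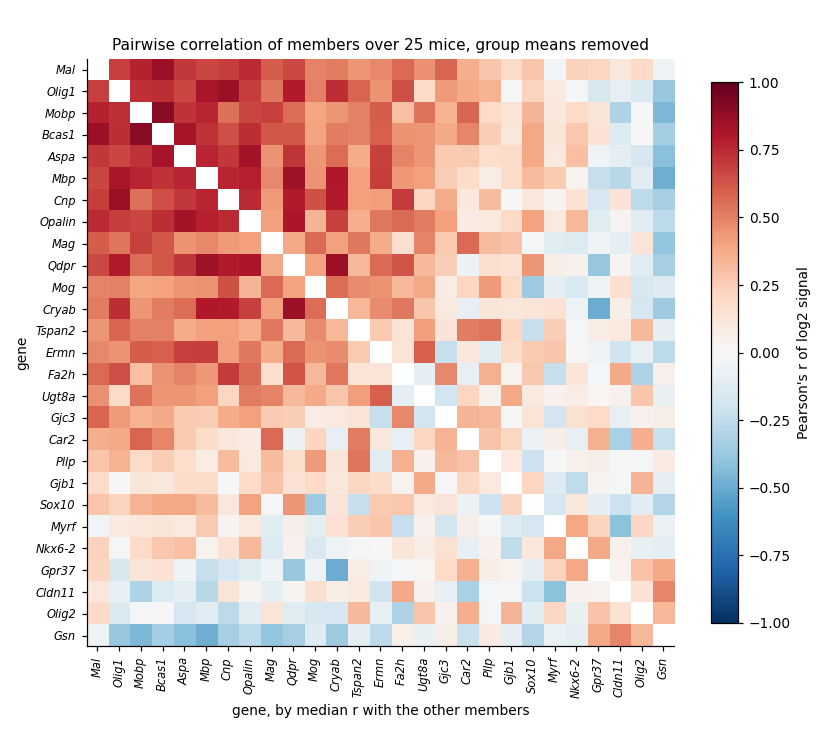
Pearson's r of log2 signal between all pairs of the 27 members over 25 mice after removal of group means (color, from -1 to 1), with genes ordered by their median r. The genes from Mal to Cryab form a block of high r, with 0.90 for Mobp and Bcas1, and Gsn, in the last row, is mostly below 0.

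Genes outside the list were set against the same score. Of 18166 genes, 1084 (5.97%) had an r of 0.5 or more with the score, and 398 genes brighter than the median gene had an r above 0.5 under both extraction methods. The 10 highest of these were Tmcc2 (r = 0.87), Plaat3 (0.82), Ccni (0.82), Bmyc (0.81), Nme2 (0.80), Dtnbp1 (0.79), Hacd2 (0.79), Coa8 (0.79), Tmem141 (0.79) and Ssbp4 (0.79). Hacd2 is a dehydratase of the elongation of very long chain fatty acids, and Nme2 is a nucleoside diphosphate kinase. None of these 10 was on the list of other oligodendrocyte genes, whose highest gene under this rule was Plekhb1 (0.76). Tmcc2 had an r of 0.88 within columns and 0.87 within Trizol.

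Of the other oligodendrocyte genes, 12 of 27 had an r of 0.5 or more with the score, led by Evi2a (0.76), Plekhb1 (0.76) and Elovl1 (0.73), the last an elongase of very long chain fatty acids. Of the precursor genes 0 of 18 did, and their median r was -0.04. Of the cholesterol synthesis genes 2 of 17 did, Tm7sf2 and Pmvk. Of the microglial markers 3 of 9 did, of the astrocyte markers 1 of 8, of the choroid plexus markers 1 of 7, and of the CA1 pyramidal neuron markers 0 of 7. Of the endothelial markers 0 of 5 did, and of the dentate granule cell markers 0 of 4.

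The mean of the microglial markers had an r of 0.55 with the score over 25 mice, 0.50 within columns and 0.70 within Trizol. That of the astrocyte markers had 0.38, 0.49 and 0.18. For the choroid plexus markers, 5 of 7 of them dim, r was 0.30 over all mice, 0.15 within columns and 0.91 within Trizol. For the pyramidal neuron markers r was -0.32 over all mice, -0.70 within the 17 column mice and 0.13 within the 8 Trizol mice. Within columns, then, mice with a higher score had a lower mean of the pyramidal neuron markers. Single markers differed, with an r within columns from -0.67 for Wfs1 to -0.11 for Fibcd1 and 0.30 for Camk2a, the only one above 0. How far the composition of the dissected piece takes part in the covariation was not tested.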

How the data were processed

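CA1 RNA of 25 mice was amplified over a double round and hybridized to Affymetrix Mouse 430_2.0 arrays. The deposited intensity values are linear MAS 5.0 signals made by the authors in Affymetrix Expression Console, chosen because the method has no distribution normalization. Extraction was read from the labels, which give positions in the list of samples. Members and gene lists were chosen with earlier results of these data known.

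Log2 signals of 45037 probe sets, without 64 control probe sets, were fitted with limma 3.58.1 in R 4.3.3 (trended prior, two-sided, Benjamini-Hochberg adjustment over all 45037, threshold 0.05), with handling and extraction as terms or with the 4 groups as contrasts. On simulated arrays the fit was tested with known changes. Exact permutation tests reassigned handling within extraction method. Covariation was computed with numpy 2.4.6. Precision comes from the number of mice. The genes given mouse by mouse were the 4 brightest members and the 4 with the smallest p for handling. Gpr37, Tspan2 and the second Mbp probe set were added because they passed. For extraction, the 2 largest rises were named, and Cnp, Bcas1 and Olig1 were added after their values were seen. Alternatives were other normalizations, an offset of 32, a filter on low signal, other priors and weights, other terms, the median over probe sets and each mouse left out.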

Additional observations from a re-analysis of the deposited data

Results flagged for a closer look

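The handling effect on Fa2h differed between extraction methods by 1.02 on the log2 scale (limma interaction, adjusted p = 0.00815), larger with columns.

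In each of the 4 groups of handling and extraction, every member was examined for a mouse that lay far from the others, by Dixon's ratio on log2 signal. Such a mouse was found 13 times over the 27 members, where chance gives about 1 in 20 of the groups tested. Mouse NH146 (non-handled, Trizol) accounted for 4 of them: it was low for Bcas1 at 3465 (next 5895), for Opalin at 282 (next 554) and for Nkx6-2 at 29.5 (next 122.7), and high for Gjb1 at 54.5 (next 32.3). Mouse NH162 (non-handled, columns) accounted for 3, being high for Fa2h at 1070 (next 856), for Opalin at 910 (next 536) and for Cnp at 17242 (next 11025). Mouse H109 (handled, columns) was low for Bcas1 at 7120 (next 9292) and for Cnp at 7916 (next 9525). Mouse H110 (handled, columns) was low for Gjb1 at 19.5 (next 107.9). Among handled Trizol mice, H130 was low for Gjc3 at 20.7 (next 105.8), H131 was low for Nkx6-2 at 20.7 (next 75.8), and H126 was high for Sox10 at 331 (next 152).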

How the results depend on the processing

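No paired analysis was possible because mice of the groups share no replicate numbers. The number of members that differed with handling was 5. It was 2 without the extraction term, and 4 to 6 with each mouse left out. It was 3 with the median over a gene's probe sets: Fa2h and Gpr37, which were among the 5, and Tspan2. Of the 5, 2 kept an exact permutation p under 0.05 with that median, Fa2h and Gpr37. Each of these has only 1 probe set, so for them the median is the same data and checks nothing. Ermn, Gsn and Sox10 have several probe sets, and none of them passed with the median. Within columns the count was 3, it was 6 with every array set to 1 common mean and SD, and 3 to 5 with each mouse left out. With the median over probe sets it was again 3, but these were Fa2h, Tspan2 and Ugt8a. The 1 member whose handling effect differed by extraction method became 0 without the trended prior. The 21 members higher with columns were 16 to 21 under the alternatives and 17 to 22 with each mouse left out. Covariation fell to 46 pairs with the median over probe sets, and was 60 to 85 pairs under the other alternatives over 25 mice. Differences near 0 turned their sign: Mbp to 0.0737 (quantile normalization), Mobp to -0.17 (common mean and SD) and -0.20 (median over probe sets), and Qdpr to 0.0307 (quantile normalization), 0.0059 (array weights), 0.0029 (3' to 5' covariates) and 0.0709 (median over probe sets). With each mouse left out Mbp ran from -0.0604 to 0.0051 and Qdpr from -0.0482 to 0.0438. The cause of these changes was not tested. Quantile normalization changed the split of all genes with columns to 5745 higher and 2580 lower, from 4316 and 3218, and a common mean and SD changed it to 5855 and 2287. Signals near the floor of the array, as of Nkx6-2, Gjb1 and the dimmest Sox10 probe set, limit what can be read from them.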
